A study of Mus musculus with 2 samples.

Results

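The cells described here were fibroblasts of the mouse mammary gland, the stromal cells that make and remodel the extracellular matrix, that were selected on UMIs (unique transcript molecules) of Chrdl1, Osr2 and Il1r2. A barcode was read as a fibroblast when it had at least 1000 UMIs, at least 500 genes and at most 15% mitochondrial UMIs, when Dcn, Lum, Col1a1 and Col3a1 together made up at least 0.7% of its UMIs, and when Krt5 and Krt14 together stayed below Dcn. A fibroblast was then kept when Chrdl1, Osr2 and Il1r2 together had at least 2 UMIs, more than Pi16, Dpp4 and Sema3c together, and at least as many as Crabp1, Hsd11b1 and Scg3 together. This left 117 of 1552 fibroblasts, and of 17677 barcodes that passed the first limits: 54 of 553 fibroblasts in the library labelled Fgd5-ko and 63 of 999 in the library labelled WT. The other fibroblasts held cells in which Pi16, Dpp4 and Sema3c led (the Pi16-gated fibroblasts, 255 cells in the library labelled Fgd5-ko and 709 in the library labelled WT), cells in which Crabp1, Hsd11b1 and Scg3 led (the Crabp1-gated fibroblasts, 198 cells in the library labelled Fgd5-ko and 99 in the library labelled WT) and cells in none of these (46 in the library labelled Fgd5-ko and 128 in the library labelled WT). Sums over cells of a library were compared, in which a share of cells that carry a gene and the RNA per cell cannot be told apart.

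Polyadenylated RNA of single cells was counted with a 10x Genomics 3' kit in 2 libraries of C57BL/6 mammary cells with the sort marker CD24highCD29+, a gate used for basal epithelial cells. One library has the genotype Fgd5-ko and a title with the word cko, and the other has the genotype WT. The labels give neither the age of the mice, the number pooled, the promoter behind any deletion, nor the meaning of P4 in both titles. Each genotype is 1 library, so a difference between the libraries has no replicate, and nothing says that the libraries came from more than 1 animal each. The gated cells had a median of 10204 UMIs in the library labelled Fgd5-ko (643525 in all) and 6101 in the library labelled WT (407354 in all). None of the 117 cells, and none of the other fibroblasts, is in the authors' own list of cells. The libraries shared 29 barcodes among those that passed, and 0 among fibroblasts.

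Fgd5, the gene named in the labels, encodes an exchange factor that activates the GTPase Cdc42, and was at 8.12 CPM (counts per 1000000 UMIs, exact Poisson 95% interval 7.65 to 8.62) over all passing barcodes of the library labelled Fgd5-ko, against 13.9 CPM (12.9 to 14.8) in the library labelled WT. In the gated cells it had 3 UMIs (4.66 CPM) in the library labelled Fgd5-ko and 7 UMIs (17.2 CPM) in the library labelled WT. Fgd5 transcripts were therefore counted in the library labelled Fgd5-ko, and 3' tags do not show whether a deleted exon is missing. All intervals given here cover counting error only.

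Connective tissue fibroblasts are not all alike. In mouse skin and fat, cells with Pi16 and Dpp4 lie in the outer sheath of vessels and in fascia, while others lie closer to the parenchyma. Cells marked by tissue factor (F3, also named CD142) are known to limit adipogenesis in cultures of mouse fat stroma. Of the 3 genes of the gate, Chrdl1 encodes a secreted protein that binds and blocks bone morphogenetic proteins (BMPs), Osr2 a zinc-finger transcription factor of developing palate, limb and connective tissue, and Il1r2 a decoy receptor that takes up interleukin-1 without signalling. In the GRCm38 annotation (GENCODE vM21), Chrdl1 lies at chrX:143285674-143394262 on the minus strand, Osr2 at chr15:35296098-35303305 on the plus strand and Il1r2 at chr1:40074079-40125231 on the plus strand. The submitters' processing notes name mm9 instead, and positions are given for orientation only.

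The levels of the 3 genes chose the cells and are a description. Chrdl1 was at 289 against 52.7 CPM in the library labelled Fgd5-ko and 334 against 99.9 CPM in the library labelled WT, each time gated cells against other fibroblasts. Osr2 was at 104 against 117 CPM in the library labelled Fgd5-ko and 351 against 199 CPM in the library labelled WT, and Il1r2 at 109 against 62.5 CPM in the library labelled Fgd5-ko and 236 against 78.1 CPM in the library labelled WT. Osr2 was thus not above the other fibroblasts in the library labelled Fgd5-ko, although it was one of the genes of the gate. Most UMIs of the 3 genes in fibroblasts lay outside the gated cells: the Pi16-gated fibroblasts held 60.0% of Chrdl1, 78.3% of Osr2 and 74.5% of Il1r2 UMIs in the library labelled Fgd5-ko, and 78.9%, 86.6% and 75.3% in the library labelled WT. The gate thus took the cells in which these genes together led Pi16, Dpp4 and Sema3c, and not most cells with these genes. Of the gated cells, 32 of 54 in the library labelled Fgd5-ko and 30 of 63 in the library labelled WT had 0 UMIs of Pi16, Dpp4 and Sema3c. At least 1 UMI of the 3 genes was also found in 336 of 499 other fibroblasts of the library labelled Fgd5-ko and 669 of 936 of the library labelled WT. Among cells that are not fibroblasts, 42 of 7109 and 50 of 9016 had at least 2 such UMIs (0.591% and 0.555%).

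The gated cells split almost evenly into those with 1 of the 3 genes and those with more. In the library labelled Fgd5-ko, 27 of 54 gated cells had only 1 of the 3 genes (50%, Clopper-Pearson 95% interval 36.1 to 63.9), 25 had a pair of them and 2 had all 3. In the library labelled WT, 33 of 63 had only 1 (52.4%, 39.4 to 65.1), 19 had a pair and 11 had all 3. Chrdl1 was the gene most often found, in 40 of 54 cells of the library labelled Fgd5-ko and 38 of 63 of the library labelled WT. Osr2 was found in 21 of 54 cells of the library labelled Fgd5-ko and 33 of 63 of the library labelled WT, and Il1r2 in 22 of 54 and 33 of 63. As a description, the gate was also rebuilt from each pair of genes and the gene left out was read. Osr2 was lower in the cells gated on Chrdl1 and Il1r2 than in the other fibroblasts of the library labelled Fgd5-ko (39.3 against 121 CPM, log2 ratio -1.62, counting interval -2.39 to -0.95), and its interval reached 0 in the library labelled WT (153 against 210.4 CPM, -0.46, -0.98 to 0.02). Cells gated on Osr2 and Il1r2 had Chrdl1 at 124 against 71.3 CPM in the library labelled Fgd5-ko (0.80, 0.28 to 1.28), and at 102 against 115 CPM in the library labelled WT (-0.17, -0.78 to 0.39). Cells gated on Chrdl1 and Osr2 had Il1r2 at 65.1 against 66.7 CPM in the library labelled Fgd5-ko (-0.03, -0.57 to 0.46), and at 191 against 83.7 CPM in the library labelled WT (1.19, 0.73 to 1.62). For none of the 3 genes did the interval lie above 0 in both libraries. Each rebuilt gate still asked for more UMIs of the pair than of Pi16, Dpp4 and Sema3c together. Pi16-gated fibroblasts, which held most UMIs of the 3 genes, thus stayed among the other fibroblasts. These ratios therefore cannot show whether the 3 genes go together.

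Many cells of the library labelled WT lay near the limit of 2 UMIs, and fewer of the library labelled Fgd5-ko. With exactly 2 UMIs there were 5 of 54 gated cells in the library labelled Fgd5-ko and 19 of 63 in the library labelled WT, with Gpx3 at 555 and 468 CPM. With 1 UMI, and otherwise meeting the rule, there were 12 and 25 fibroblasts, with Gpx3 at 650.3 and 1011 CPM. A larger group of fibroblasts had at least 2 UMIs of the 3 genes but failed against the other genes: 254 cells in the library labelled Fgd5-ko, 220 of them not above the Pi16 set, and 461 in the library labelled WT, 452 of them not above it.

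Gpx3 and Clec3b were named with the 3 genes as marks of these cells but are not part of the gate. Gpx3, a secreted selenium-containing glutathione peroxidase, was at 535 against 429 CPM in the library labelled Fgd5-ko and 1164 against 689 CPM in the library labelled WT, and did not pass the test (log2 ratio 0.57, SE 0.20, edgeR adjusted p = 0.135). Clec3b, which encodes the plasminogen-binding protein tetranectin, was at 772 against 1152 CPM in the library labelled Fgd5-ko and 2104 against 2287 CPM in the library labelled WT, lower in the gated cells of both libraries and short of the threshold (log2 ratio -0.32, SE 0.19, edgeR adjusted p = 0.605). Both genes were also high in Pi16-gated fibroblasts, at 547 and 783 CPM for Gpx3 and 1658 and 2514 CPM for Clec3b. Neither gene was above the Pi16-gated fibroblasts in both libraries, but the gate keeps those cells out and so favours this. Both were higher in the gated cells than in Crabp1-gated fibroblasts of each library. Clec3b turned to a log2 ratio of 0.56 against other fibroblasts with 0 UMIs of the 3 genes. Without fibroblasts that carried UMIs of other cell types it was at 0.24, and it was called in neither setting. The 5 genes were thus not shown to mark 1 kind of cell, and the cells are called here by their gate.

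**Figure D1:**
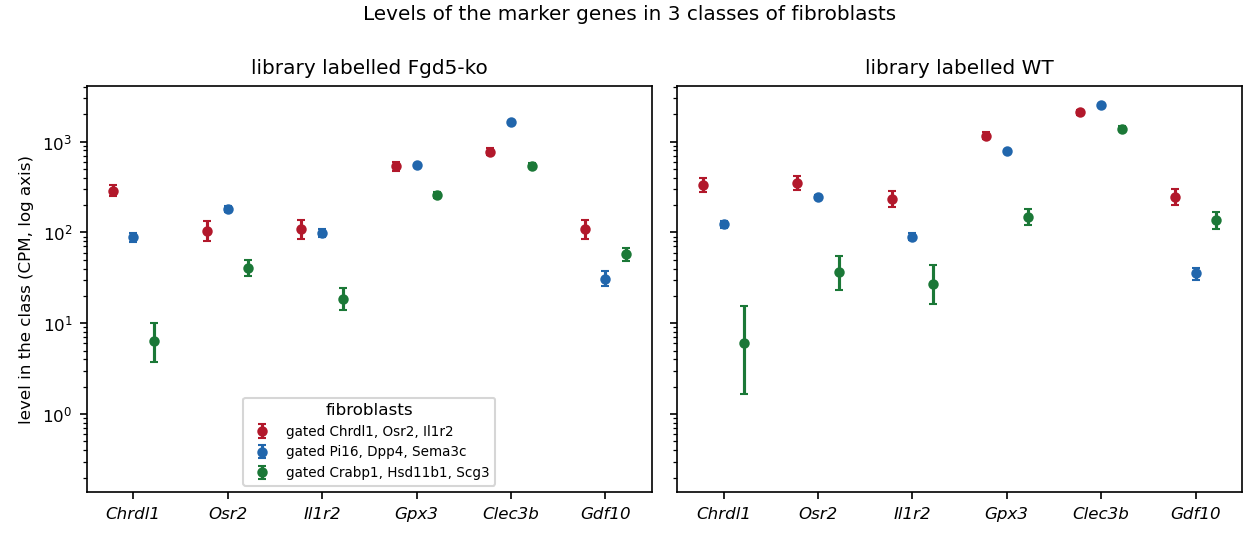
Level of 6 genes, in CPM on a log axis, in the 3 gated classes of fibroblasts of the library labelled Fgd5-ko (left panel) and the library labelled WT (right panel). Points are sums over all cells of a class and bars are exact Poisson 95% intervals. Chrdl1 is highest in the cells gated on it, Clec3b is highest in Pi16-gated fibroblasts, and Gdf10, which the gate did not read, is highest in the cells gated on Chrdl1, Osr2 and Il1r2, at 109 and 248 CPM.

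The gated cells were compared with all other fibroblasts over the genes that the gate did not read. UMIs were summed per library and class, so that 4 sums entered the fit, and the edgeR quasi-likelihood test had library and class as terms and 1 residual degree of freedom among libraries. Of 11134 genes tested, 263 were higher (2.36%) and 242 lower (2.17%) in the gated cells at an adjusted p under 0.05, and 479 of the 505 had the same direction in both libraries. The gate asked for fewer UMIs of Pi16, Dpp4 and Sema3c together than of its own 3 genes. Genes that go with Pi16, Dpp4 and Sema3c were thus bound to be lower, and their direction is not a finding. In the same way the gate favours a rise of genes that are low in Pi16-gated fibroblasts. The same fit without the library term gave 0 calls (336 genes higher and 336 lower at an unadjusted p under 0.05), and DESeq2 gave 75 higher and 57 lower, so the number of calls depends on the library term and on the tool. The same held for single genes: of 94 genes of this comparison that were followed through the alternatives, 59 kept their direction and their side of the threshold with DESeq2, 40 with cells thinned to 3000 UMIs and 32 against other fibroblasts with 0 UMIs of the 3 genes of the gate.

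**Figure D2:**
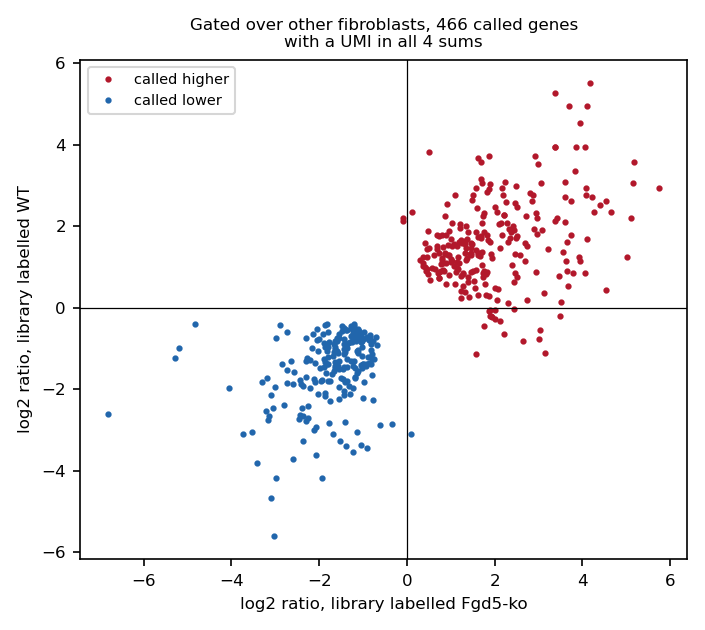
Log2 ratio of gated over other fibroblasts in the library labelled Fgd5-ko (x axis) and in the library labelled WT (y axis), for the 466 called genes with a UMI in all 4 sums. Each point is a gene, coloured by whether it was called higher or lower, and points in the upper left and lower right fields had opposite directions in the libraries.

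A block of genes known from CD142-positive stromal cells was higher in the gated cells than in the other fibroblasts. Pi16-gated cells made up 255 of 499 other fibroblasts in the library labelled Fgd5-ko and 709 of 936 in the library labelled WT. The gate keeps them out and so favours a rise of genes that are low in them. The part of this in the rise was not tested, and the list was chosen with earlier results of these data known. Of 11 genes of that list, all tested, 9 rose, 1 fell and 1 did not pass, against 2.36% and 2.17% of all genes, and the list's median log2 ratio was 1.72, against -0.02 over all genes tested. F3, the initiator of blood coagulation whose protein is CD142, was at 253 against 58.9 CPM in the library labelled Fgd5-ko and 85.9 against 20.7 CPM in the library labelled WT (log2 ratio 2.12, SE 0.22, edgeR adjusted p = 1.41e-07). Igfbp3, a carrier of insulin-like growth factors, was at 1069 against 240.0 CPM in the library labelled Fgd5-ko and 663 against 156 CPM in the library labelled WT (log2 ratio 2.15, SE 0.21, edgeR adjusted p = 3.24e-08). In both genes the gated cells of each library lay above its other fibroblasts by like amounts. Meox2, a homeobox transcription factor, was at 85.5 against 17.9 CPM in the library labelled Fgd5-ko and 44.2 against 7.33 CPM in the library labelled WT (log2 ratio 2.42, SE 0.29, edgeR adjusted p = 1.22e-06). Vit, which encodes the matrix protein vitrin, was at 71.5 against 20.1 CPM in the library labelled Fgd5-ko and 68.7 against 9.56 CPM in the library labelled WT, and Clec11a, a secreted growth factor of bone and marrow stroma, at 48.2 against 13.1 CPM in the library labelled Fgd5-ko and 44.2 against 5.89 CPM in the library labelled WT. Bgn (biglycan), Cygb (the oxygen-binding cytoglobin) and Fmo2 (a flavin monooxygenase) rose with log2 ratios of 1.43, 1.42 and 1.52. Adgrd1, an adhesion G-protein-coupled receptor, fell (log2 ratio -1.28), and Mgp was the member that did not pass. DESeq2 called 9 of the 11 higher and 0 lower. With cells thinned to 3000 UMIs, and again with fibroblasts that carried UMIs of other cell types left out, 5 of the 11 were called higher, and in the second of these Fmo2 turned to a log2 ratio of -0.56.

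Gdf10 was the member of that block that also belongs to the BMP pathway, the system that Chrdl1 acts on. It encodes a ligand of the transforming growth factor beta family and was at 109 against 42.8 CPM in the library labelled Fgd5-ko and 248 against 61.8 CPM in the library labelled WT (log2 ratio 1.72, SE 0.22, edgeR adjusted p = 3.52e-06). The 54 gated cells of the library labelled Fgd5-ko held 70 Gdf10 UMIs in 24 cells and the 63 of the library labelled WT held 101 in 35 cells, with at most 11 UMIs in 1 cell. After every cell was thinned to 3000 UMIs, 25.9% of gated cells against 10.3% of other fibroblasts had a Gdf10 UMI in the library labelled Fgd5-ko, and 38.6% against 11.9% in the library labelled WT (unthinned 44.4% against 24.8%, and 55.6% against 19.2%). Shallower cells left out of the thinning were 0 gated and 15 other fibroblasts in the library labelled Fgd5-ko, and 6 and 76 in the library labelled WT. Cells that are not fibroblasts, with median depths of 15778 and 4844 UMIs, had a thinned share of 0.0715% in the library labelled Fgd5-ko and 0.391% in the library labelled WT.

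Of 34 tested genes of the BMP pathway list, 4 rose and 4 fell, against 2.36% and 2.17% of all genes, with a median log2 ratio of -0.22. DESeq2 called 3 higher and 1 lower, and without cells rich in Ccl19 and Ccl21a (at least 5 UMIs together) edgeR called 2 higher and 1 lower. Among ligands, Gdf10 rose, while Bmp2 (9.32 against 73.7 CPM in the library labelled Fgd5-ko and 4.91 against 89.5 CPM in the library labelled WT, log2 ratio -3.36, SE 0.38, edgeR adjusted p = 5.43e-07) and Bmp7 (log2 ratio -1.74) fell. Bmp2 was high in Pi16-gated fibroblasts, at 122 and 113 CPM in the libraries labelled Fgd5-ko and WT. Among secreted antagonists, Grem1 (gremlin) was at 73.0 against 1.35 CPM in the library labelled Fgd5-ko and 4.91 against 0.637 CPM in the library labelled WT (log2 ratio 5.15, SE 0.63, edgeR adjusted p = 1.72e-06), from 47 UMIs in the gated cells of the library labelled Fgd5-ko and 2 in those of the library labelled WT, and Sostdc1 rose with a log2 ratio of 1.31. Grem1 was no longer called with cells thinned to 3000 UMIs (edgeR adjusted p = 0.234). Fst (follistatin) was at 264 against 271 CPM in the library labelled Fgd5-ko and 462 against 183 CPM in the library labelled WT, and did not pass the test (edgeR adjusted p = 0.138). Bambi, a membrane pseudoreceptor, rose with a log2 ratio of 1.55, and the secreted proteins Fstl1 and Htra3 fell with -0.80 and -0.81. The calls of Sostdc1, Bmp7, Fstl1 and Htra3 were all lost with DESeq2 (adjusted p = 0.9997, 0.618, 0.393 and 0.362), thinned, with at least 3 marker UMIs, in cells of 4000 to 12000 UMIs, against other fibroblasts with 0 marker UMIs and without the Ccl19 and Ccl21a rich cells, where Sostdc1 was at a log2 ratio of 0.75. Gdf10 kept its call in each of these settings. The receptors Bmpr1a, Bmpr2, Acvr1 and Acvr2a, the transducers Smad1 and Smad5 and the target genes Id1, Id2, Id3 and Id4 did not pass. Id3, the most abundant target, was at 1984 against 3620.3 CPM in the library labelled Fgd5-ko and 1750.3 against 1968 CPM in the library labelled WT.

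In the interleukin-1 family, the system of Il1r2, 9 genes were tested, 1 rose and 1 fell, against 2.36% and 2.17% of all genes, with 3 higher and 2 lower by edgeR at an unadjusted p under 0.05, and DESeq2 called 0. Il1r1, the signalling receptor, was at 93.2 against 52.1 CPM in the library labelled Fgd5-ko and 93.3 against 50.03 CPM in the library labelled WT (log2 ratio 0.90, SE 0.22, edgeR adjusted p = 0.0136), and Il18, a cytokine of the family, at 10.9 against 41.7 CPM in the library labelled Fgd5-ko and 36.8 against 125 CPM in the library labelled WT (log2 ratio -1.81, SE 0.30, edgeR adjusted p = 1.65e-04). The call of Il1r1 was lost with DESeq2 (adjusted p = 0.68), with at least 3 marker UMIs (edgeR adjusted p = 0.0809), thinned (0.281) and without the Ccl19 and Ccl21a rich cells (0.318), with log2 ratios between 0.64 and 1.21. It was also lost in cells of 4000 to 12000 UMIs (edgeR adjusted p = 0.102), without cells with other types' markers (0.915) and against other fibroblasts with 0 marker UMIs (0.0659). That of Il18 was lost with DESeq2 (adjusted p = 0.0584), thinned (edgeR adjusted p = 0.437), in cells of 4000 to 12000 UMIs (0.0813) and without cells with other types' markers (0.0535). Against other fibroblasts with 0 marker UMIs Il18 was at a log2 ratio of -0.51 (edgeR adjusted p = 0.772). The receptor partner Il1rap and the adapter Myd88 did not pass. Il33, a cytokine released by damaged stromal cells, was higher in gated cells of the library labelled Fgd5-ko (155 against 73.0 CPM) and lower in those of the library labelled WT (24.5 against 80.6 CPM). Among 29 tested transcription factors of connective tissue, the group of Osr2, 3 rose and 2 fell, against 2.36% and 2.17% of all genes. DESeq2 called 2 on each side. Meox2, Nr2f2 (log2 ratio 1.36) and Gata6 (1.14) rose, and Ebf2 (-1.40) and Creb5 (-1.31) fell. Osr1, the paralog of Osr2, was at 205 against 220.1 CPM in the library labelled Fgd5-ko and 162 against 135 CPM in the library labelled WT and did not pass (edgeR adjusted p = 0.956).

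**Figure D3:**
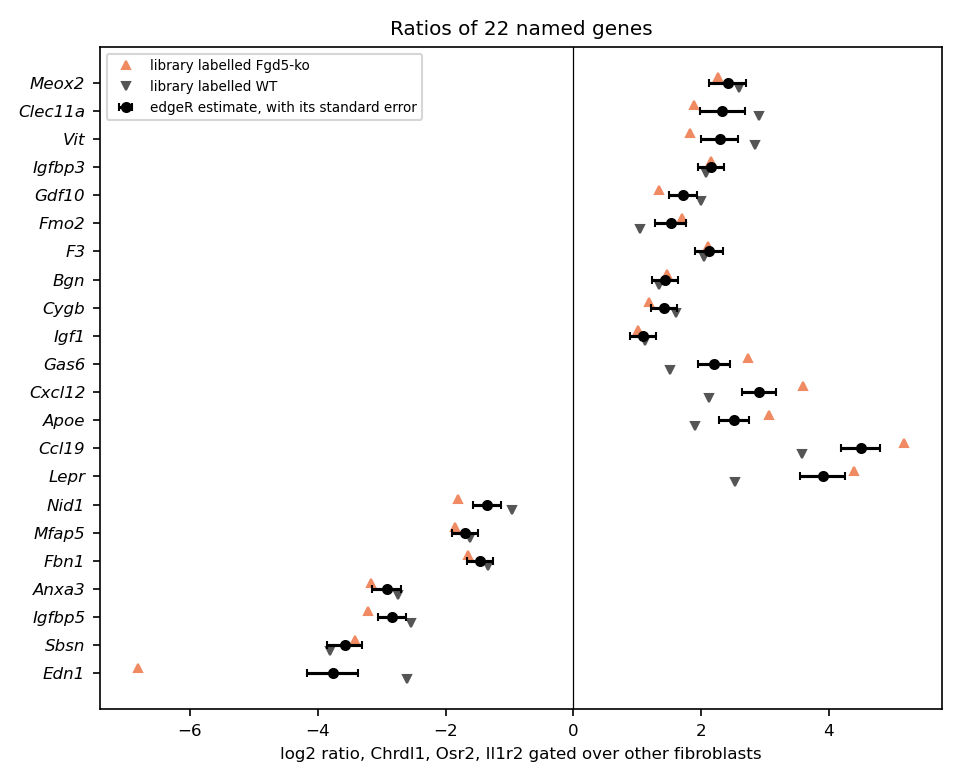
Log2 ratio of gated over other fibroblasts for 22 named genes. Black points with bars are the edgeR estimate and its standard error, and triangles are the plain ratio of CPM in each library. The genes from Meox2 to Cygb are the 9 of 11 CD142 genes that were called higher, and they lie on the same side in both libraries. Adgrd1, which fell, and Mgp, which did not pass, are not drawn. Ccl19, Lepr, Cxcl12 and Apoe lie farther from 0 in the library labelled Fgd5-ko than in the library labelled WT.

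The genes with the highest ratios were of another kind. Ranked by ratio among called genes of at least 50 CPM, the first 12 were Ccl19, Lepr, Ccl21a, Cxcl12, Vtn, Tmem176a, Tmem176b, Apoe, Rgs16, Abcc9, Clu and Steap4. Ccl19 and Ccl21a, the chemokines that draw cells with the receptor CCR7 into lymph node tissue, were at 514 against 14.3 CPM in the library labelled Fgd5-ko and 149.7 against 12.6 CPM in the library labelled WT for Ccl19 (log2 ratio 4.50, SE 0.30, edgeR adjusted p = 1.41e-10) and at 2766 against 159 CPM in the library labelled Fgd5-ko and 609 against 189 CPM in the library labelled WT for Ccl21a (log2 ratio 2.97, SE 0.35, edgeR adjusted p = 1.11e-06). Both genes have near-identical copies in the mouse genome, so reads that match several copies could be split or lost in the authors' counting and these levels are uncertain. They are neighbours in the GRCm38 annotation, at chr4:42754525-42756577 and chr4:42772860-42773993, both on the minus strand. Lepr, the leptin receptor, was at 168 against 7.96 CPM in the library labelled Fgd5-ko and 22.1 against 3.82 CPM in the library labelled WT (log2 ratio 3.91, SE 0.35, edgeR adjusted p = 1.46e-08). Cxcl12, the chemokine of the receptor CXCR4, was at 3472 against 286 CPM in the library labelled Fgd5-ko and 759 against 175 CPM in the library labelled WT (log2 ratio 2.91, SE 0.27, edgeR adjusted p = 1.76e-08), and Apoe, a lipid carrier, at 13801 against 1645 CPM in the library labelled Fgd5-ko and 3923 against 1048 CPM in the library labelled WT (log2 ratio 2.52, SE 0.23, edgeR adjusted p = 1.76e-08). Vtn (vitronectin), Abcc9 (a subunit of a potassium channel also used by pericytes), Clu (clusterin, a chaperone) and Steap4 (a metalloreductase) had log2 ratios of 2.74, 2.47, 2.38 and 2.25. Clu differed between the libraries, with a log2 ratio of 3.67 in the library labelled Fgd5-ko and 0.54 in the library labelled WT, and lost its call with DESeq2 (adjusted p = 0.9997) and in cells of 4000 to 12000 UMIs (edgeR adjusted p = 0.178). Abcc9 was at a log2 ratio of 1.18 (edgeR adjusted p = 0.999) without fibroblasts that carried UMIs of other cell types, and Ccl21a was not called by DESeq2 (adjusted p = 0.238).

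Most UMIs of the first 3 of these genes lay in part of the gated cells: in the library labelled Fgd5-ko, 326 of 331 Ccl19 UMIs, all 1780 Ccl21a UMIs and all 108 Lepr UMIs lay in 20 cells. There, 20 of 54 gated cells had at least 5 UMIs of Ccl19 and Ccl21a together (37.0%, Clopper-Pearson 95% interval 24.3 to 51.3), all of them at least 10, and only 3 lay between 1 and 4 UMIs. In the library labelled WT, 5 of 63 had at least 5 (7.94%, 2.63 to 17.6), 2 of them at least 10, and 11 lay between 1 and 4. Among other fibroblasts the count was 7 of 499 (1.40%) in the library labelled Fgd5-ko and 5 of 936 (0.534%) in the library labelled WT. Among cells that are not fibroblasts it was 43 of 7109 (0.605%) and 225 of 9016 (2.50%). This split, with its limit of 5 UMIs, was chosen after the values were seen, so the levels that follow are a description with no test.

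In the library labelled Fgd5-ko, the Ccl19 and Ccl21a rich gated cells had Lepr at 544 CPM, from all 108 Lepr UMIs of the gated cells, and the other 34 gated cells had 0 UMIs, which allows up to 6.74 CPM (3 UMIs). Grem1 was at 237 CPM in the rich cells, from all 47 of its UMIs, and also had 0 UMIs in the others. Cxcl12 was at 8936 against 1036 CPM, Apoe at 37381 against 3289 CPM, Clu at 2601 against 44.9 CPM, C3 (the central complement component) at 10644 against 1761 CPM and Vcam1 (an adhesion receptor for leukocytes) at 534 against 71.9 CPM. In matrix genes the order was the other way, with Col1a1 at 328 against 2019.7 CPM, Col3a1 at 368 against 4718 CPM and Lum at 186 against 2231 CPM, while Dcn was at 16148 against 13340.5 CPM. Gdf10 was at 20.2 against 148 CPM, Vit at 5.04 against 101 CPM and Osr2 at 45.4 against 130.3 CPM. Chrdl1 was high in both kinds, at 433 against 225 CPM, as was Igfbp3, at 1174 against 1022 CPM.

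The 5 rich cells of the library labelled WT held 25477 UMIs and so gave wide intervals. There, Lepr was at 314 CPM (counting interval 136 to 619) in the rich cells and 2.62 CPM in the other gated cells, Apoe at 27044 against 2380.3 CPM, and Col1a1 at 2080.3 against 5161 CPM. In both libraries the rich cells thus had more Lepr and Apoe and less Col1a1, a gene of the fibroblast gate, than the other gated cells.

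**Figure D4:**
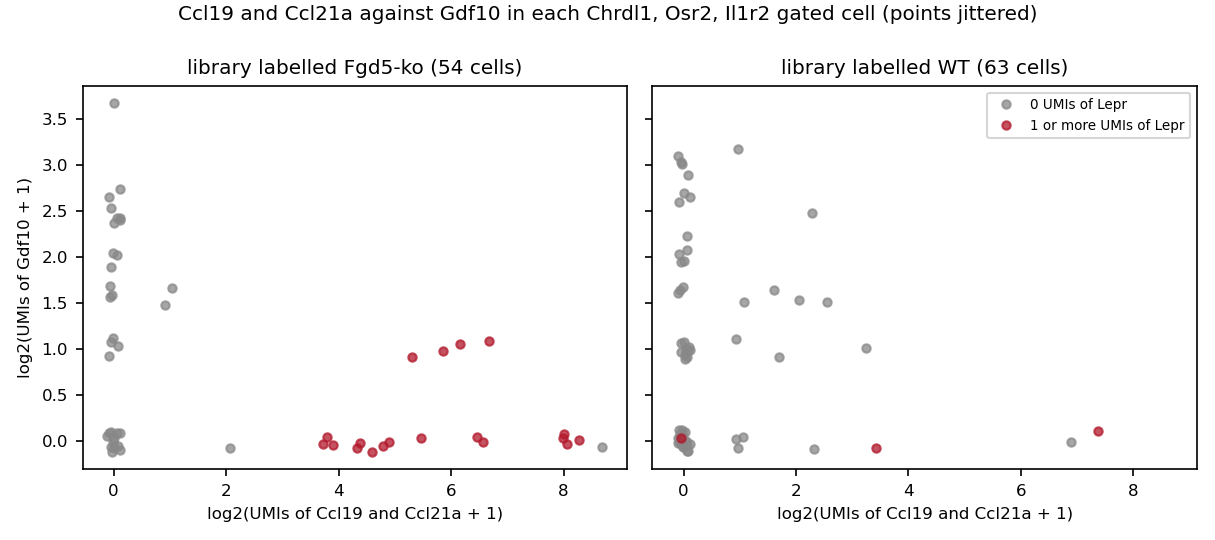
Each gated cell by its UMIs of Ccl19 and Ccl21a together (x axis) and of Gdf10 (y axis), both as log2(UMIs + 1) with a small random shift, in the library labelled Fgd5-ko (left panel, 54 cells) and the library labelled WT (right panel, 63 cells). Red points have at least 1 UMI of Lepr. The 20 rich cells of the left panel carry Lepr in 19 cells and Gdf10 in 4, and few such cells are seen on the right.

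Without all cells that had at least 5 UMIs of Ccl19 and Ccl21a, in every class, the same test called 78 genes higher (0.71%) and 102 lower (0.928%) of 10989, of which 73 and 96 were also called with those cells. The CD142 list again had 9 of 11 genes higher and 1 lower. Gdf10, Igfbp3, Meox2, Vit and Clec11a stayed called, as did Cxcl12 (log2 ratio 1.89) and Apoe (1.32). Lepr and Clu did not, and their log2 ratios turned to -1.61 and -0.39 (edgeR adjusted p = 0.813 and 0.768). Lepr was then found in 0 of 34 gated cells of the library labelled Fgd5-ko and 1 of 58 of the library labelled WT. The sign of its ratio is therefore not read. The ratios of Ccl19 and Ccl21a are not read in this setting, since their UMIs decided which cells were removed. Both stayed in the fit, and Ccl19 is one of the 78 genes called higher.

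Markers of other cell types also differed between gated and other fibroblasts. The summed level of 8 pericyte and vascular smooth muscle markers was 412 CPM in gated cells against 45.5 CPM in other fibroblasts of the library labelled Fgd5-ko, with 7 of 8 detected and Higd1b at 0, and 128 against 64.5 CPM in the library labelled WT, with 4 of 8 detected and Notch3, Cspg4, Higd1b and Mcam at 0. Des (desmin) rose with a log2 ratio of 3.77. The 8 basal epithelial markers, which include Krt5 and Krt14 of the gate, summed to 1823 against 1130.4 CPM in the library labelled Fgd5-ko and 567 against 928 CPM in the library labelled WT, in opposite directions. Of 4 lymphatic endothelial markers other than Ccl21a, Prox1, Mmrn1 and Flt4 had 0 UMIs in gated cells of both libraries. All 5 B-cell markers had 0 UMIs in gated cells of the library labelled Fgd5-ko, against 11.4 CPM in its other fibroblasts, and summed to 39.3 against 2.39 CPM in the library labelled WT. The 5 tendon markers summed to 151 against 26.7 CPM in the library labelled Fgd5-ko, with Mkx at 0 in gated cells, and to 7.36 against 20.7 CPM in the library labelled WT, with 4 of 5 at 0. The 9 myeloid markers summed to 40.4 against 10.4 CPM in the library labelled Fgd5-ko and 4.91 against 10.8 CPM in the library labelled WT, with 7 of 9 at 0 in gated cells of each, Lyz2, Adgre1 and Csf1r among them. The 8 fibroblast markers, which include genes of the gate, were all detected and summed to 24184 against 25814 CPM in the library labelled Fgd5-ko and 34918 against 26318 CPM in the library labelled WT. The part of these other markers in the results was not tested. Leaving out every fibroblast with at least 3 UMIs of such markers left 8 gated cells in the library labelled Fgd5-ko and 34 in the library labelled WT, and the test then called 56 genes higher and 57 lower.

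Complement proteins tag microbes and debris for removal. Of 14 tested complement genes, 7 rose and 1 fell, against 2.36% and 2.17% of all genes, and DESeq2 called 4 higher and 1 lower, with C4b at 977 against 276 CPM in the library labelled Fgd5-ko and 1006 against 289.6 CPM in the library labelled WT (log2 ratio 1.84, SE 0.20, edgeR adjusted p = 3.96e-07; its near-identical copy C4a makes this count uncertain), C2 at a log2 ratio of 2.24 and C3 of 1.22. Cd55, which shields cells from complement and is also on the adventitial list, fell by 2.20 on the log2 scale. Without the Ccl19 and Ccl21a rich cells 3 complement genes rose and 1 fell. Of 21 tested chemokines and cytokines, 6 rose and 2 fell, against 2.36% and 2.17% of all genes. The counts were 3 and 3 without those rich cells, and 4 and 2 by DESeq2. Ccl19, whose UMIs decided which cells were removed, is among the 3 higher without those cells. Called members included Cxcl16 (log2 ratio 2.13), Cxcl13 (1.19) and Ccl8 (1.04) on one side and Ccl2 (-1.12) and Il34 (-3.42) on the other. Of 32 tested growth factors for epithelium and vessels, 8 rose and 3 fell, against 2.36% and 2.17% of all genes. DESeq2 called 3 higher and 0 lower (13 higher and 7 lower by edgeR at an unadjusted p under 0.05), and edgeR called 4 higher and 1 lower without the Ccl19 and Ccl21a rich cells. The called members Pdgfa and Angptl1 were lower in the gated cells of the library labelled WT alone, with log2 ratios of -0.32 and -0.54. Igf1 was at 275 against 137 CPM in the library labelled Fgd5-ko and 322 against 147 CPM in the library labelled WT (log2 ratio 1.10, SE 0.20, edgeR adjusted p = 7.36e-04), Gas6, a ligand of the TAM receptors, at a log2 ratio of 2.21, and Fgf7, Vegfa and Ptn at 1.35, 1.11 and 1.36. Among IGF binding proteins, Igfbp3 and Igfbp7 rose (1.50 for Igfbp7) and Igfbp4 and Igfbp5 fell (-0.96 and -2.84).

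Few collagen genes passed the test, and the shares over all genes were 2.36% higher and 2.17% lower. Of 12 tested fibrillar and network collagens, 0 rose and 1, Col14a1, fell (log2 ratio -1.30), and edgeR had 0 higher and 1 lower at an unadjusted p under 0.05, as DESeq2 had at its adjusted threshold. Of 15 basement membrane genes edgeR called 0 higher and 1, Nid1, lower (-1.35), with 1 higher and 3 lower at an unadjusted p under 0.05, and DESeq2 also called 0 higher and 1 lower. Of 25 elastic fibre genes, 1 rose and 10 fell (5 fell without the Ccl19 and Ccl21a rich cells, and 4 by DESeq2), with Mfap5 at 418 against 1501 CPM in the library labelled Fgd5-ko and 699.6 against 2139.6 CPM in the library labelled WT and Fbn1 (fibrillin-1) at 197 against 619 CPM in the library labelled Fgd5-ko and 410.0 against 1038 CPM in the library labelled WT. Both are also on the list of adventitial fibroblast genes that go with Pi16, of which edgeR called 18 of 24 lower and 0 higher (21 lower and 0 higher at an unadjusted p under 0.05, and 13 and 0 by DESeq2), the direction that the gate favours. Of 11 cell cycle genes edgeR and DESeq2 each called 0, with 1 higher and 0 lower at an unadjusted p under 0.05, and of 12 myofibroblast genes each called 0, with 1 higher and 3 lower. Immediate early genes, which dissociation can raise, had 3 higher and 0 lower of 22 tested by edgeR (Jun, Jund and Nr4a1), 14 higher and 0 lower at an unadjusted p under 0.05, and 0 by DESeq2.

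Other lists had calls on either side, to be read against 2.36% higher and 2.17% lower of all genes. Of 10 small leucine-rich proteoglycans, 4 rose and 1 fell, with Fmod, Podn and Ecm2 rising beside Bgn and Aspn falling (log2 ratios 2.62, 0.99, 0.82 and -1.37). DESeq2 called 1 of the 10 higher and 1 lower, and Fmod was at a log2 ratio of 3.52 in the library labelled Fgd5-ko and 0.14 in the library labelled WT. Of 33 antioxidant and selenoprotein genes, the group of Gpx3, 5 rose and 0 fell by edgeR, 7 were higher and 3 lower at an unadjusted p under 0.05, and DESeq2 called 2 higher and 0 lower. Of the 5, Cygb and Fmo2 are also on the CD142 list. Selenop, the selenium carrier, was at 758 against 465 CPM in the library labelled Fgd5-ko and 754 against 414 CPM in the library labelled WT (log2 ratio 0.81, SE 0.20, edgeR adjusted p = 0.012), and was not called by DESeq2 (adjusted p = 0.131). Of 28 Wnt pathway genes 3 rose and 3 fell: Wnt6, Rspo1 and Sfrp5 rose (log2 ratios 1.51, 1.74 and 2.06), and Wnt2 and Wnt11 fell (-2.13 and -1.08). In the library labelled WT alone Rspo1 and Sfrp5 were not higher, with log2 ratios of -0.054 and -0.024. DESeq2 called 0 Wnt genes higher and 1 lower, with 6 higher and 7 lower by edgeR at an unadjusted p under 0.05. Wnt10b fell too, with 0 UMIs in the gated cells of both libraries, against 19.4 CPM in other fibroblasts of the library labelled Fgd5-ko and 38.1 CPM in those of the library labelled WT. Sfrp5 rested on 3 cells of the library labelled Fgd5-ko and 1 of the library labelled WT. Of 22 retinoid and steroid genes 2 rose and 2 fell, and of 27 proteases and inhibitors 1 rose and 4 fell. DESeq2 called 0 higher and 1 lower in each of these 2 lists. Of 23 lipid genes 2 rose and 1 fell, and of 16 heat shock genes 1 rose and 1 fell. In each of those lists DESeq2 called 1 higher and 0 lower. Of 26 nerve and guidance genes 1 rose and 3 fell, and DESeq2 called 0. Of 26 interferon response genes 1, Ifitm1, rose (log2 ratio 1.63, and 0.28 without the Ccl19 and Ccl21a rich cells, edgeR adjusted p = 0.769).

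The lowest ratios among called genes of at least 50 CPM belonged to Dmkn, Mrgprg, Pcsk6, Edn1, Sbsn, Car8, Aldh1a3, Anxa3, Ptx3, Igfbp5, Efhd1 and Tek. All 12 were higher in Pi16-gated fibroblasts than in the gated cells of each library. Dmkn (dermokine) had 0 UMIs in the gated cells of both libraries, against 83.2 and 122 CPM in other fibroblasts, which makes it lower in gated cells by at least 17.8-fold in the library labelled Fgd5-ko, and by at least 16.5-fold in the library labelled WT, at a floor of 3 UMIs per library. Edn1, the vessel-constricting peptide endothelin-1, was at 1.55 against 174 CPM in the library labelled Fgd5-ko and 29.5 against 179 CPM in the library labelled WT. Anxa3, a calcium-dependent membrane-binding annexin, was at 82.4 against 739 CPM in the library labelled Fgd5-ko and 209 against 1400.5 CPM in the library labelled WT.

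Set against the Pi16-gated fibroblasts alone, 441 of 10320 genes were higher (4.27%) and 350 lower (3.39%). The highest ratios among called genes of at least 50 CPM were Ccl19 (log2 ratio 6.99), Ccl21a (5.66), Vtn (5.09), Sfrp5 (4.64), Ifitm1 (4.31) and Cxcl12 (3.94), and the lowest were Dmkn, Mrgprg, Krtdap, Pcsk6, Lurap1l and Edn1. Ifitm1, an interferon-induced membrane protein, was at 462 against 19.4 CPM in the library labelled Fgd5-ko and 115 against 7.52 CPM in the library labelled WT, gated against Pi16-gated cells. Of the 11 CD142 genes, 10 rose and 1 fell, with a median log2 ratio of 2.44, against -0.01 over all genes tested. The gate favours a rise of genes that are low in Pi16-gated cells, and its part in this count was not tested. Of 20 tested genes of interstitial fibroblasts and preadipocytes, 18 rose and 0 fell in this comparison. The rule for Pi16-gated cells asked for fewer UMIs of Crabp1, Hsd11b1 and Scg3 than of the Pi16 set, which favours a rise of interstitial genes. Against Crabp1-gated fibroblasts, where the rule favours a fall, 3 of the 20 rose and 3 fell, with a median log2 ratio of -0.73. Of all genes tested in that comparison, 1.18% were higher and 0.626% lower. Against all other fibroblasts 6 of the 20 rose (among them Vcam1, Icam1 and Ggt5, with log2 ratios of 2.23, 1.05 and 1.02) and 1, Mme, fell. The shares over all genes there were 2.36% higher and 2.17% lower.

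Set against the Crabp1-gated fibroblasts, of which the library labelled WT has 99, 81 of 6873 genes were higher (1.18%) and 43 lower (0.626%). Lepr (log2 ratio 4.51), Ccl19 (4.27), Cxcl13 (4.14), C3 (3.53), C4b (3.1) and Angptl1 (3.09) had the highest ratios. C3 was at 4500.2 against 453 CPM in the library labelled Fgd5-ko and 2352 against 195 CPM in the library labelled WT, gated against Crabp1-gated cells (log2 ratio 3.53, SE 0.15, edgeR adjusted p = 1.57e-04). Cxcl13, a chemokine for B cells, was at 1033 against 126 CPM in the library labelled Fgd5-ko, while 484 CPM stood against 0 UMIs in the library labelled WT, so its fitted ratio is no bound. Pi16-gated cells had it at 1107 and 155 CPM in the libraries labelled Fgd5-ko and WT. The lowest were Hc, Slit2, Hmcn1, Mme, H19 and Cthrc1. Slit2, a repellent guidance cue for axons and cells, was at 10.9 against 113 CPM in the library labelled Fgd5-ko and 9.82 against 139.9 CPM in the library labelled WT, and Mme, the peptidase neprilysin, at 59.0 against 426 CPM in the library labelled Fgd5-ko and 24.5 against 225 CPM in the library labelled WT. The CD142 list had 3 of 11 higher and 0 lower here, with a median log2 ratio of 1.07, against 0.004 over all genes tested. All 3 comparisons share the same gated sums. Leaving out the Ccl19 and Ccl21a rich cells raised the calls to 143 higher and 89 lower of 6250.

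The gated cells made up 9.76% of fibroblasts (Clopper-Pearson 95% interval 7.42 to 12.5) in the library labelled Fgd5-ko, against 6.31% (4.88 to 8.0) in the library labelled WT. The median depth of fibroblasts was 12684 UMIs in the library labelled Fgd5-ko and 6558 in the library labelled WT. After thinning every cell to 3000 UMIs the share was 4.66% (3.04 to 6.80) in the library labelled Fgd5-ko, against 3.92% (2.76 to 5.38) in the library labelled WT, with intervals that overlap, over 537 fibroblasts in the library labelled Fgd5-ko and 919 in the library labelled WT. Among fibroblasts of 4000 to 12000 UMIs the gap was wider and the intervals separate, with 15.5% (11 to 21) of 219 in the library labelled Fgd5-ko, against 6.37% (4.76 to 8.31) of 785 in the library labelled WT. Without fibroblasts that carried markers of other types the order turned, with 4.60% (2.01 to 8.86) in the library labelled Fgd5-ko against 6.37% (4.45 to 8.78) in the library labelled WT. Without Ccl19 and Ccl21a rich cells the share was 6.46% of 526 fibroblasts in the library labelled Fgd5-ko. In the library labelled WT it was 5.86% of 989. That split was chosen after the values were seen. The sort can set these shares, since its gate is one for epithelial cells.

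Levels in the gated cells were also set side by side between the libraries, with no test, as each genotype is 1 library. At a mean of at least 50 CPM, 2638 genes were compared, and 166 (6.29%) were past 2-fold higher and 243 (9.21%) past 2-fold lower in the library labelled Fgd5-ko than in the library labelled WT, with a median log2 ratio of -0.13. In the other fibroblasts 107 (3.91%) and 112 (4.09%) of 2739 were. The gated sums held 643525 and 407354 UMIs and those of other fibroblasts 6659652 and 6276568, and the part of counting error in the difference was not tested. Without the Ccl19 and Ccl21a rich cells the gated cells had 183 genes past 2-fold higher and 217 lower of 2652. Of the 166 genes, 86 were past 2-fold the same way in the other fibroblasts, as were 75 of the 243.

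The largest ratios towards the library labelled Fgd5-ko were those of Ctla2a, Sfrp5, Ogfrl1, Tcim, Rrad, Lars2, Csf2rb and Hist1h1e. Much of several came from 1 cell: 138 of 184 Ctla2a UMIs, 60 of 124 Sfrp5 UMIs, 90 of 117 Rrad UMIs and 52 of 94 Tcim UMIs lay in the highest cell of the library labelled Fgd5-ko. Sfrp5, a secreted Wnt antagonist, was found in 3 gated cells of that library in all. Lars2, the mitochondrial leucyl-tRNA synthetase, was at 1092 against 83.5 CPM in the gated cells, and the other fibroblasts shifted the same way (log2 ratio 3.71, interval 3.21 to 4.25, against 3.27 in other fibroblasts). Csf2rb, the shared beta chain of receptors for the cytokines GM-CSF and IL-3, was at 168 against 14.7 CPM, and 105 of its 108 UMIs in the library labelled Fgd5-ko lay in the Ccl19 and Ccl21a rich cells.

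The largest ratios towards the library labelled WT were those of Plac9b, Smpd3, Akr1c18, Ptx3, Rnaset2b, Gstp1, Anpep and Ifi27l2a. Plac9b had 1 UMI in the gated cells of the library labelled Fgd5-ko, against 43 UMIs in the library labelled WT, and Gstp1, a glutathione transferase, 13 against 55. These genes and Rnaset2b have near-identical copies in the mouse genome, so their counts are uncertain. The other fibroblasts shifted the same way, with log2 ratios of -4.83 and -2.87. Ptx3, a pattern-recognition protein of inflammation, went the other way there: it was at 52.8 against 400.1 CPM in gated cells (log2 ratio -2.92, interval -3.50 to -2.38) and at 1925 against 797 CPM in other fibroblasts (log2 ratio 1.27). Without the Ccl19 and Ccl21a rich cells its log2 ratio in the gated cells was -2.35. Ifi27l2a, an interferon-induced gene, was at 353 against 2179.9 CPM in gated cells and at 1003 against 2098 CPM in other fibroblasts.

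**Figure D5:**
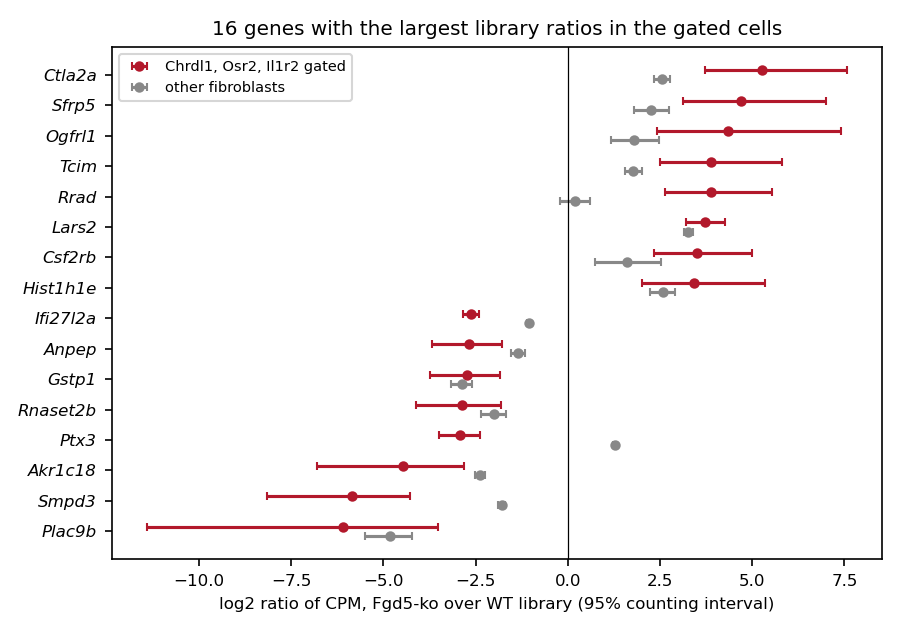
Log2 ratio of CPM, library labelled Fgd5-ko over library labelled WT, for the 16 genes with the largest ratios in the gated cells (red), with the same ratio in other fibroblasts (grey). Bars are exact 95% counting intervals over reads of 2 libraries. Lars2 and Gstp1 shift alike in both, whereas Ptx3 lies on opposite sides of 0.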

How the data were processed

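Per the file headers, the matrices that the authors deposited for the 2 libraries were written by software of version 3.1.0, and they hold raw UMI counts of every gene in every barcode, not normalized. Cell Ranger, Seurat 3.0 and the build mm9 stand in the submitters' processing notes without their roles, and no annotation is named. The deposited list of cells served only to look up which barcodes it holds. A UMI count leaves out amplification copies.

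The members, gene lists and comparisons were chosen with earlier results of these data known. Counts were summed per library and class. The edgeR 4.0.16 quasi-likelihood test (library and class as terms, TMM factors, filterByExpr, Benjamini-Hochberg adjustment over all genes tested) left out the 15 genes of the gate and mitochondrially encoded genes. With 4 sums there was 1 residual degree of freedom, and the sums of a class in 2 libraries are the replicates. With library as a term, p-values rest on how far the class difference varies between these 2 libraries, which differ in genotype label. The fit also draws on the spread of all genes tested, and a p-value does not measure the spread between animals. Pairing of the sums by library comes from the shared library and is part of the fit. Class sums of 1 library per genotype were compared with no test. Intervals at 95% are exact Poisson for CPM, Clopper-Pearson for shares and exact conditional for library ratios. A count of 0 allows up to 3 counts. SE is the log2 ratio divided by the root of the F statistic.

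Genes named by rule were the 12 highest and 12 lowest ratios among called genes of at least 50 CPM (6 and 6 for each class comparison, 8 and 8 for the libraries), the tested members of the BMP, interleukin-1 and transcription factor lists, and up to 4 of each other list. F3, Bgn, Cygb, Selenop and the genes of the split by Ccl19 and Ccl21a were named after their values were seen, as were other members of lists named with a ratio only. No doublet caller was run on so few cells, so doublets may remain, and cells with at least 3 UMIs of other cell types' markers were left out in an alternative. Alternatives were DESeq2 1.42.0, median-ratio factors, no filter, no library term, at least 3 marker UMIs, cells of 4000 to 12000 UMIs, cells thinned to 3000 UMIs, each library alone, and other fibroblasts with 0 marker UMIs. The fit was tested on simulated data. R 4.3.3 ran the fits, Python 3.11.15 with SciPy 1.17.1, pandas 2.3.3 and NumPy 2.4.6 the rest, and matplotlib 3.10.9 the figures.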

Additional observations from a re-analysis of the deposited data

Results flagged for a closer look

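For 8 genes the log2 ratio of gated over other fibroblasts had opposite signs in the libraries. The differences between the libraries were not tested. Among collagens, Col1a1 had -0.61 in the library labelled Fgd5-ko and 0.53 in the library labelled WT, Col3a1 had -0.80 and 0.54 in that order, and Col5a2 had -0.88 and 0.33. Col12a1 had 0.56 in the library labelled Fgd5-ko and -4.46 in the library labelled WT. Col1a1 and Col3a1 were part of the gate for fibroblasts. Krt14, a keratin of basal epithelium that the gate limits, had 0.41 in the library labelled Fgd5-ko and -0.69 in the library labelled WT. Id2, a target of BMP signalling, had -0.79 in the library labelled Fgd5-ko and 0.68 in the library labelled WT. Il33 had 1.09 in the library labelled Fgd5-ko and -1.72 in the library labelled WT. Runx2, a transcription factor of bone, had -2.30 in the library labelled Fgd5-ko and 1.42 in the library labelled WT.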

How the results depend on the processing

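Counts of called genes moved with most choices, and the cause was not tested. Against other fibroblasts, genes higher and lower were 75 and 57 with DESeq2, 0 and 0 with edgeR without the library term (336 and 336 at an unadjusted p under 0.05), 157 and 134 with at least 3 marker UMIs, 71 and 56 in cells of 4000 to 12000 UMIs, 32 and 26 with cells thinned to 3000 UMIs, 56 and 57 without cells with other types' markers, 47 and 20 against other fibroblasts with 0 marker UMIs, and 78 and 102 without Ccl19 and Ccl21a rich cells, an alternative chosen after seeing the data. Against Pi16-gated fibroblasts they were 163 and 126 with DESeq2, 0 and 0 with edgeR without the library term (599 and 532 at an unadjusted p under 0.05), 269 and 201 with at least 3 marker UMIs, 160 and 162 in the depth window and 118 and 91 thinned, and 534 were lower with no filter. Against Crabp1-gated fibroblasts they were 38 and 17 with DESeq2, 329 and 257 with no filter, 0 and 0 with edgeR without the library term (213 and 173 at an unadjusted p under 0.05), 226 and 141 with at least 3 marker UMIs, 50 and 19 in the depth window and 143 and 89 without Ccl19 and Ccl21a rich cells. Between the libraries, genes past 2-fold higher were 88 at a minimum of 100 CPM and 335 thinned, and genes past 2-fold lower were 135 at that minimum, 419 in the depth window and 468 thinned. The share of gated cells in the library labelled Fgd5-ko was 4.66% thinned, 15.5% in the depth window, 4.60% without cells with other types' markers and 6.46% without Ccl19 and Ccl21a rich cells, and in the library labelled WT 3.92% thinned and 4.40% with at least 3 marker UMIs. Of the 24 genes with the largest ratios against other fibroblasts, 24 kept direction and call with median-ratio factors and with at least 3 marker UMIs, 21 in the depth window, 20 without cells with other types' markers, 20 without Ccl19 and Ccl21a rich cells (2 lost the call and 2 changed sign), 19 with DESeq2, 17 thinned and 14 against other fibroblasts with 0 marker UMIs, where 9 lost the call. Of the genes counted without Ccl19 and Ccl21a rich cells, Ccl19 is among the 20 kept and Ccl21a among the 2 that lost the call. Their UMIs decided which cells were removed, so neither outcome is read. Log2 ratios changed sign in single genes. Without Ccl19 and Ccl21a rich cells Lepr was at -1.61, Clu at -0.39 and Il33 at -1.03. The ratio of Lepr there rests on 1 gated cell with a UMI, in the library labelled WT. Il33 was at -0.085 with DESeq2, -0.41 thinned and -0.93 without cells with other types' markers. In that last setting Podn was at -0.27, Fmo2 at -0.56, Angptl1 at -1.08, Plau at 0.063, Nr4a1 at -0.20, Ifitm1 at -0.11 and Clec3b at 0.24. Angptl1 was at -0.63 in the depth window and -0.72 thinned, where Rbp4 was at -0.18 and Plau at 0.10. Against other fibroblasts with 0 marker UMIs, Hspb8 was at 0.0032 and Clec3b at 0.56. Within the library labelled Fgd5-ko and the library labelled WT taken alone, in that order, the ratios were -0.039 and 1.34 for Fst, -0.10 and 0.26 for Osr1, 1.09 and -1.72 for Il33, 2.43 and -0.024 for Sfrp5, 2.0 and -0.054 for Rspo1, 3.04 and -0.54 for Angptl1, and 2.12 and -0.32 for Pdgfa. No paired analysis was possible beyond the library term because each genotype is 1 library. With 54 and 63 gated cells, genes of few UMIs were seldom tested.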
